A study of Mus musculus with 23 samples.

Results

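Fat of HL1002P mice was compared with fat of wild-type (WT) mice, 4 libraries against 4, chosen by their labels out of the 23 libraries of the series. The series measured polyadenylated RNA in a hind limb muscle and in fat (a depot abbreviated IAT) of mice aged 8 to 10 months on a mixed 129Sve/C57BL/6 background. HL1002P mice carry 1 hypomorphic allele (H) of Bub1b, which makes too little protein, and 1 allele with the L1002P missense change. WT mice carry neither, and fat of 4 HH mice, which carry a pair of H alleles, was used here for a single side comparison. The alleles are in the whole animal, so every cell type of the tissue carries them.

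Bub1b encodes BubR1, a kinase-like protein of the spindle assembly checkpoint that holds back anaphase until every chromosome is attached to the spindle. Loss of BubR1 in people causes mosaic variegated aneuploidy, and mice with little BubR1 age early, with loss of fat and build-up of cells expressing Cdkn2a. White fat holds large lipid-filled fat cells among vessels, fibroblast-like progenitors and macrophages. Some depots also enclose a lymph node, a B and T cell organ with its own stroma, vessels and macrophages.

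Levels are read counts scaled to a common library size (CPM), with scaling factors from the trimmed mean of M values (TMM). Each list of 4 values follows replicate numbers 1 to 4. Fold changes, rises and falls are on the log2 scale, HL1002P over WT, and adjusted p values come from the quasi-likelihood test of edgeR with Benjamini-Hochberg adjustment over all genes tested. A gene is said to have changed only where its adjusted p was under 0.05. The sources say no more of the replicates than that each is its own sample, so the p values measure only the spread between these samples.

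Library totals ran from 28.5 to 58.8 M counts. The labels give no sex. Xist counts marked WT replicates 3 and 4 and HL1002P replicate 4, and Y-linked counts marked the other 5 libraries. Genes of mammary and skin epithelium summed to 1524 to 2379 CPM in the 3 libraries with Xist and to 8.00 to 149 CPM in the others. Skeletal muscle genes summed to 19647 CPM in WT replicate 3 and 7571 CPM in HL1002P replicate 4, against 239 to 1997 CPM in the other 6. Fat cell genes were abundant in all 8 libraries, which fits the label: Adipoq was at 1579 to 3969 CPM in WT and 843 to 2071 CPM in HL1002P. The fat cell list as a whole summed to 29429 to 67483 CPM in WT and 19076 to 36726 CPM in HL1002P.

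Of 15910 genes tested, 4420 (27.8%) changed: 2541 (16.0%) rose and 1879 (11.8%) fell in HL1002P fat. More than 2-fold rises numbered 1342 and more than 2-fold falls 917. The median log2 fold change over all genes tested was −0.02. All 4 HL1002P libraries were above all 4 WT libraries for 17.0% of genes and below them for 11.0%. The calls sat close to the threshold, since the smallest adjusted p was 0.0172. Without WT replicate 2 no gene passed (smallest adjusted p 0.0524), and none passed without HL1002P replicate 1 (0.0617), 2 (0.0655) or 3 (0.0611). In those 4 fits 5366 to 6160 genes had an unadjusted p under 0.05, against 7078 with all 8 libraries. Without WT replicate 1 the count was 1066, without WT replicate 4 it was 2713, and without HL1002P replicate 4 it was 6656. Among the 5 libraries with Y-linked counts, 2 WT against 3 HL1002P, 8757 genes passed. The libraries with Xist, 2 against 1, were too few for a test of their own. Every call below shares this dependence. Counts for each list below stand against the 16.0% of all genes that rose and the 11.8% that fell.

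**Figure D1:**
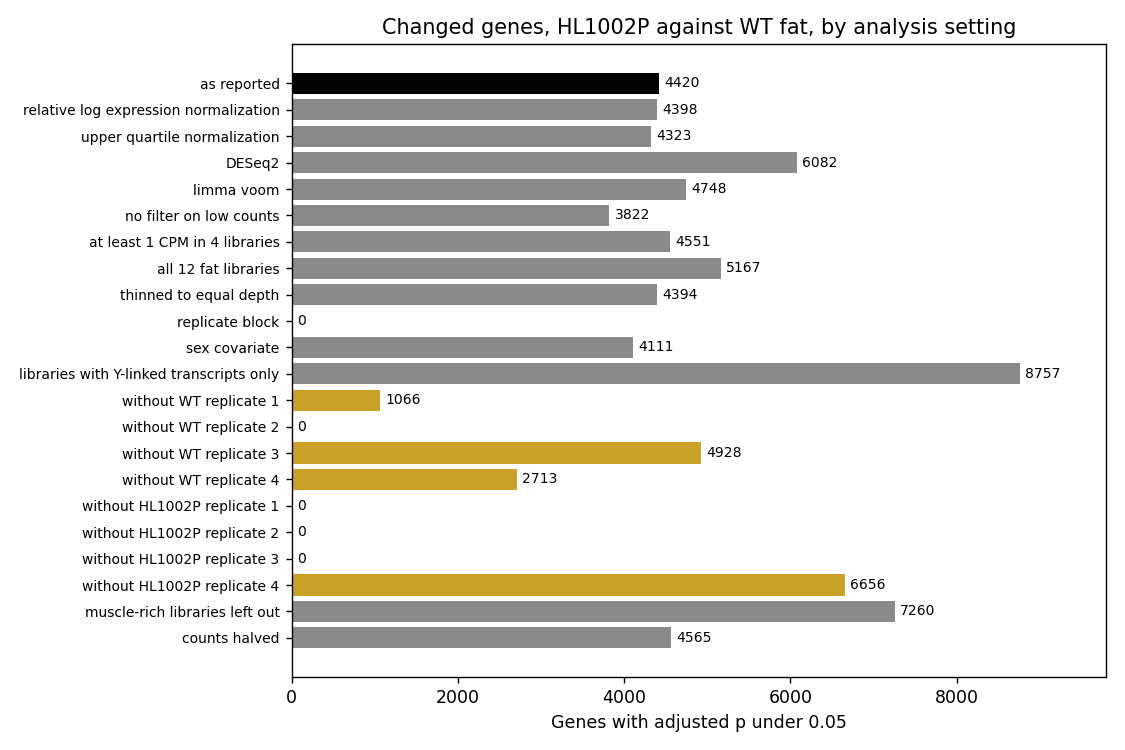
Number of genes with an adjusted p under 0.05 for HL1002P against WT fat (horizontal axis) as reported and under each other setting (rows); gold bars leave out 1 library and grey bars are the other settings. The count is 4420 as reported, is 0 without WT replicate 2 or any of HL1002P replicates 1 to 3, and is 8757 among libraries with Y-linked counts.

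The mutated gene itself was not called. Bub1b (chromosome 2, 118598202 to 118641592, GRCm38) was at 6.87, 11.1, 9.55 and 10.6 CPM in WT and 22.0, 22.4, 18.7 and 6.00 CPM in HL1002P. HL1002P replicates 1 to 3 were above every WT library and replicate 4 was below every one, so the groups overlapped. The log2 fold change was 0.86 ± 0.39 (SE, adjusted p = 0.12), and without HL1002P replicate 4 it was 1.14 and past the test. Summed counts per gene do not separate the H allele from the L1002P allele, so they give no check of the genotype labels. The spindle checkpoint and kinetochore genes, which act with BubR1, were mostly higher: 16 of 24 rose and 1 fell, with a median log2 fold change of 1.43. Mad2l1, the checkpoint partner that binds Cdc20, was at 8.82, 12.7, 10.2 and 9.85 CPM in WT and 33.3, 34.1, 19.1 and 10.3 CPM in HL1002P and rose by 1.22 ± 0.36 (SE, adjusted p = 0.0385). Cdc20, the activator of the anaphase-promoting complex that the checkpoint holds in check, was at 5.84, 8.38, 7.09 and 6.83 CPM in WT and 26.6, 27.2, 18.0 and 8.47 CPM in HL1002P and rose by 1.51 ± 0.35 (SE, adjusted p = 0.0232). Trip13, an ATPase that recycles Mad2, lay at 1.79 to 1.96 CPM in WT and 2.57 to 6.81 CPM in HL1002P and rose by 1.50 ± 0.33 (SE, adjusted p = 0.0213). HL1002P replicate 4 was the lowest of its group for Bub1b, Mad2l1, Cdc20 and Trip13. None of the 24 passed without WT replicate 1.

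Cdkn2a, the gene of the cell cycle inhibitors p16Ink4a and p19Arf, rose in every HL1002P library. It lies on chromosome 4 (89274473 to 89294619, GRCm38), and the count does not separate its transcripts. Its level was 0.965, 1.84, 1.72 and 1.02 CPM in WT and 6.81, 5.22, 5.69 and 3.80 CPM in HL1002P. The groups did not overlap, and the log2 fold change was 1.96 ± 0.32 (SE, adjusted p = 0.0172). Within the libraries with Y-linked counts it was 2.02. Cdkn1a, the p53-regulated inhibitor p21, went the other way at 141, 159, 119 and 94.9 CPM in WT and 42.8, 49.4, 54.6 and 79.4 CPM in HL1002P. All HL1002P libraries were below all WT libraries, and Cdkn1a fell by −1.18 ± 0.23 (SE, adjusted p = 0.019). Cdkn2d, the inhibitor p19Ink4d, lay at 18.9 to 23.5 CPM in WT and 25.9 to 51.4 CPM in HL1002P and rose by 0.87 ± 0.21 (SE, adjusted p = 0.0247). Of 7 cyclin-dependent kinase inhibitor genes tested, these were the 3 that changed.

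**Figure D2:**
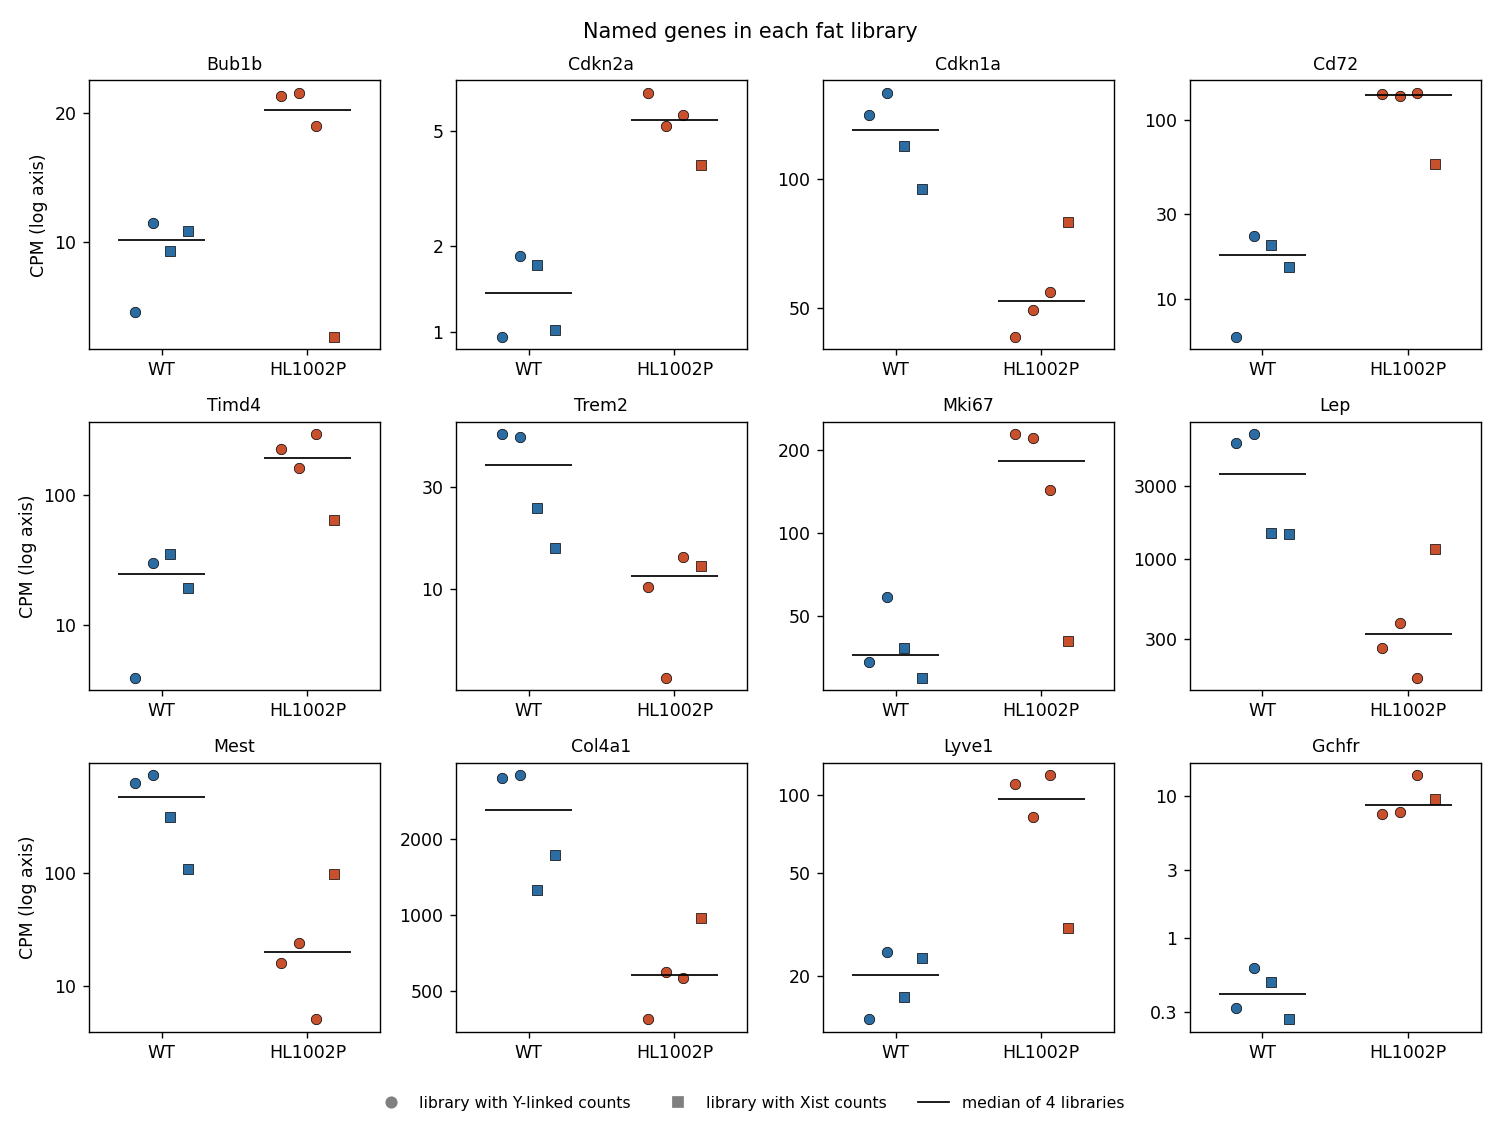
Level of 12 named genes (CPM, log axis) in each WT (blue) and HL1002P (orange) fat library; circles are libraries with Y-linked counts, squares libraries with Xist counts, and the line is the median of 4. Cdkn2a, Cd72, Timd4, Lyve1 and Gchfr are higher in all 4 HL1002P libraries, Cdkn1a, Trem2, Lep, Mest and Col4a1 are lower in all 4, and Bub1b and Mki67 overlap.

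The largest coordinated rise was in lymphocyte genes. All 20 B cell genes tested rose, against 16.0% of all genes, with a median log2 fold change of 3.01. Of 27 T cell genes 26 rose, with a median of 2.07. Summed B cell genes were at 60.8, 874, 663 and 429.9 CPM in WT and 5084, 5139.9, 4638 and 1770.0 CPM in HL1002P. WT replicate 1 was far below the other WT libraries, and HL1002P replicate 4 was the lowest HL1002P library. Cd72, a B cell surface receptor, lay at 6.14 to 22.4 CPM in WT and 56.8 to 143 CPM in HL1002P and rose by 2.90 ± 0.45 (SE, adjusted p = 0.0172). In bulk tissue, more cells of a type and more RNA per cell cannot be told apart.

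Summed T cell genes were at 170.1, 548, 568 and 582 CPM in WT and 2082, 2383, 2325 and 1137 CPM in HL1002P. The 3 WT libraries other than replicate 1 lay close together, and all were below the lowest HL1002P library. Cd3e, a chain of the T cell receptor complex, was at 4.18, 13.0, 13.6 and 14.1 CPM in WT and 46.8, 52.2, 59.8 and 32.2 CPM in HL1002P and rose by 2.09 ± 0.38 (SE, adjusted p = 0.0177). Cd4, which marks helper T cells, rose by 2.44 ± 0.43 (SE, adjusted p = 0.0177). Cd8a, which marks cytotoxic T cells, rose by 1.96 ± 0.39 (SE, adjusted p = 0.0193). The groups did not overlap for any of these genes. Without WT replicate 1, 19 of 20 B cell genes and 26 of 27 T cell genes still passed. Among libraries with Y-linked counts the B cell count was 12 of 20 (median 3.26) and the T cell count 27 of 27 (median 2.57).

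Genes of antibody-secreting and germinal centre cells moved less evenly: 7 of 16 rose (median 1.71). Igj, the joining chain of polymeric antibodies, was at 68.2, 140.0, 131 and 137 CPM in WT and 2169, 1329.9, 1104 and 188 CPM in HL1002P. It rose by 3.33 ± 0.65 (SE, adjusted p = 0.0193), and HL1002P replicate 4 lay much nearer to WT than the other 3. Natural killer and cytotoxic genes had 4 of 10 past the test (median 0.81). Eomes, a transcription factor of cytotoxic lymphocytes, lay at 2.60 to 3.28 CPM in WT and 9.51 to 17.3 CPM in HL1002P and rose by 2.05 ± 0.25 (SE, adjusted p = 0.0172). The natural killer receptor gene Ncr1 had a log2 fold change of 0.75 ± 0.31 (SE, adjusted p = 0.0966).

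Genes of lymph node stroma and high endothelial venules, the vessels through which lymphocytes enter a node, also moved: 10 of 16 rose and none fell (median 2.22). Their summed level was 678, 982, 801 and 790.0 CPM in WT and 2760.3, 2106, 2731 and 1620.3 CPM in HL1002P, with no overlap. Madcam1, an address molecule of these vessels, was at 0.150, 1.20, 0.713 and 1.19 CPM in WT and 24.4, 23.8, 14.4 and 9.97 CPM in HL1002P and rose by 4.49 ± 0.64 (SE, adjusted p = 0.0172). Cxcl13, the chemokine that draws B cells into follicles, was at 1.59, 42.2, 39.3 and 12.7 CPM in WT and 399, 222, 241 and 91.5 CPM in HL1002P and rose by 3.32 ± 0.90 (SE, adjusted p = 0.0315). Glycam1, a defining marker of high endothelial venules, did not separate the groups at 0.858, 19.8, 155 and 230.4 CPM in WT and 148, 130.0, 176 and 602 CPM in HL1002P (log2 fold change 1.38, SE 1.23, adjusted p = 0.405). It was lowest in WT replicate 1 and highest in HL1002P replicate 4. Cd209b, a lectin of lymph node and marginal zone macrophages, lay at 16.3 to 98.9 CPM in WT and 110.4 to 524 CPM in HL1002P and rose by 2.71 ± 0.63 (SE, adjusted p = 0.0236). Lymphatic vessel genes had 3 of 6 past the test, all higher (median 1.57). Lyve1, a hyaluronan receptor of lymphatic vessels that some macrophages share, was at 13.6, 24.8, 16.6 and 23.5 CPM in WT and 111, 82.5, 119.8 and 30.8 CPM in HL1002P and rose by 2.13 ± 0.41 (SE, adjusted p = 0.019). Prox1, the transcription factor that sets lymphatic identity, lay at 0.172 to 0.944 CPM in WT and 1.60 to 7.19 CPM in HL1002P and rose by 2.88 ± 0.61 (SE, adjusted p = 0.0203). The part of a lymph node taken with the fat in these differences was not tested.

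**Figure D3:**
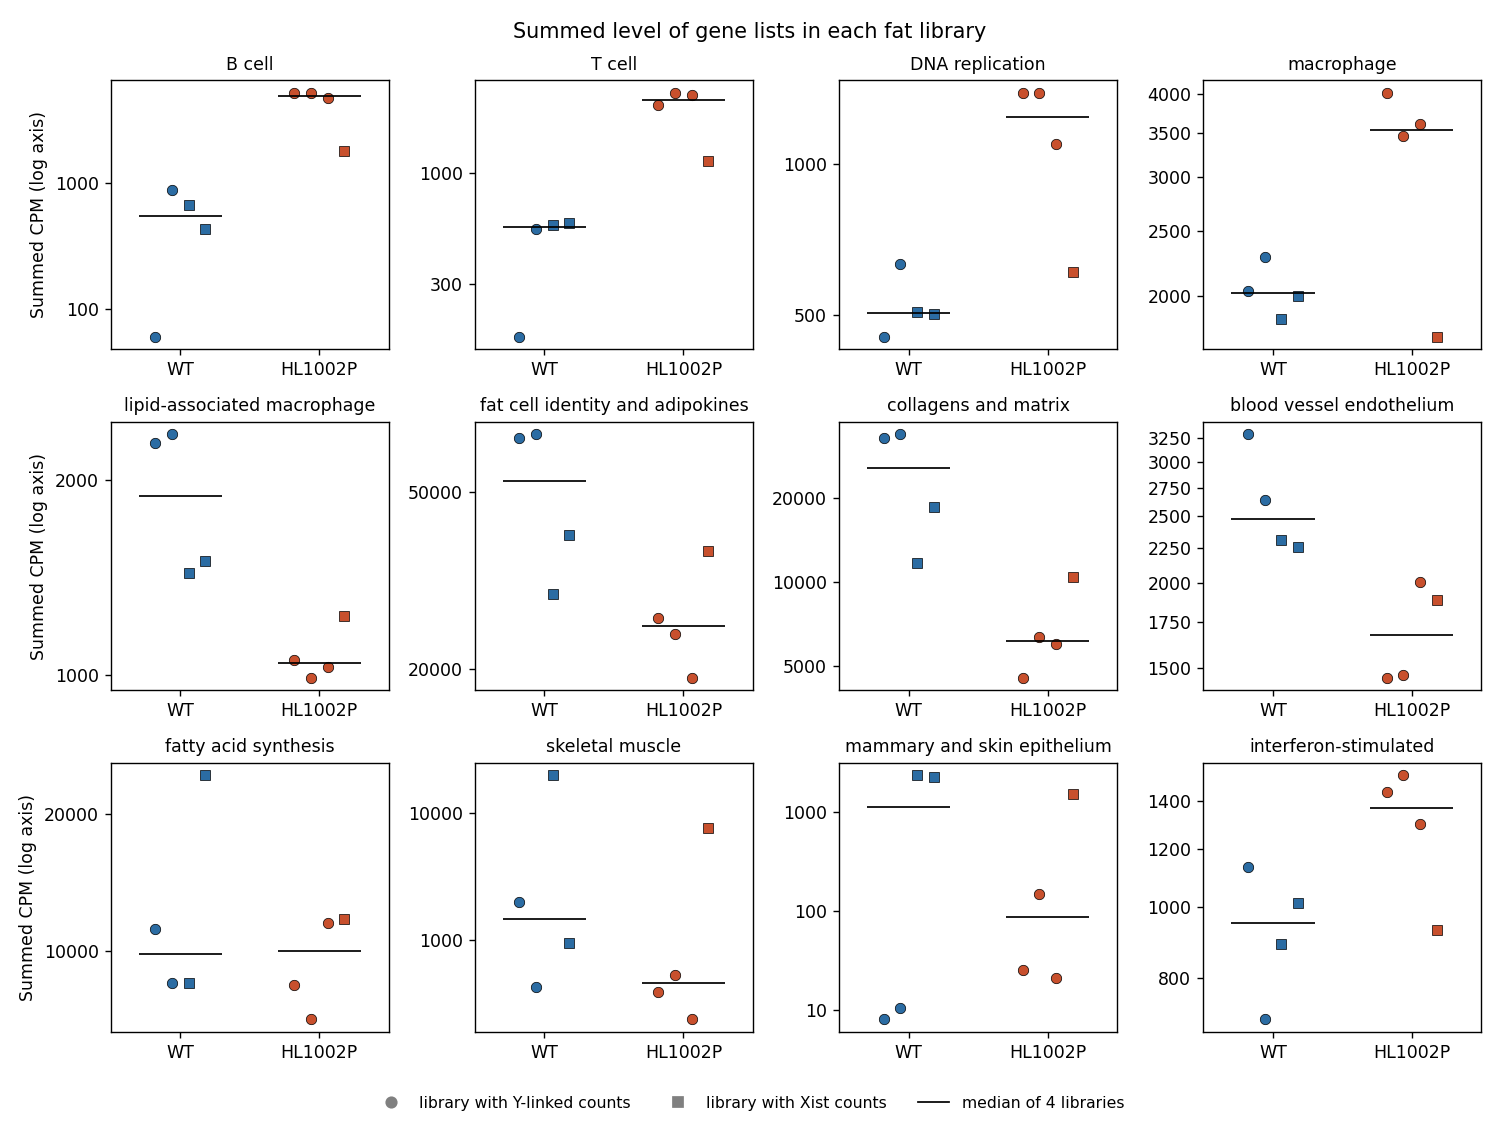
Summed level of 12 gene lists (CPM, log axis) in each fat library, with symbols and colours as in the plot of named genes by library. B and T cell sums do not overlap between groups, collagens and lipid-associated macrophage sums are lower in all HL1002P libraries, and muscle and epithelium sums separate single libraries or those with Xist counts rather than the genotypes.

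Antigen presentation genes rose with the lymphocyte genes: 10 of 11 major histocompatibility complex class II genes passed (median 1.27). Ciita, their master regulator, was at 25.1, 54.8, 43.3 and 40.8 CPM in WT and 241, 250.5, 246 and 90.3 CPM in HL1002P and rose by 2.34 ± 0.36 (SE, adjusted p = 0.0172). Cd74, the invariant chain, was at 952, 1211, 1153 and 1163 CPM in WT and 3141, 3077, 3042 and 1565 CPM in HL1002P and rose by 1.27 ± 0.26 (SE, adjusted p = 0.0198). HL1002P replicate 4 was again the nearest to WT for each. Of 9 dendritic cell genes 5 rose (median 0.90), with Flt3, the receptor that sustains dendritic cells, up by 2.05 ± 0.37. Zbtb46, which marks conventional dendritic cells, did not pass and had a log2 fold change of −0.33 ± 0.14 (SE, adjusted p = 0.11).

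Of 19 general macrophage genes 4 rose and none fell (median 0.19), a share of rises near the 16.0% of all genes, and their sums overlapped between groups. Emr1, which encodes the F4/80 antigen, was at 69.7, 65.8, 37.6 and 50.4 CPM in WT and 49.3, 38.5, 54.9 and 22.5 CPM in HL1002P, and its log2 fold change was −0.43 ± 0.29 (SE, adjusted p = 0.279). Timd4, a phosphatidylserine receptor of resident macrophages, was at 3.86, 29.8, 34.8 and 19.2 CPM in WT and 224, 161, 295 and 63.7 CPM in HL1002P and rose by 3.08 ± 0.69 (SE, adjusted p = 0.0221). All HL1002P libraries were above all WT libraries, and WT replicate 1 was the lowest. Lyz2, the myeloid lysozyme, rose by 1.18 ± 0.33 (SE, adjusted p = 0.0345) although HL1002P replicate 4, at 694 CPM, lay among the WT libraries.

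Lipid-associated macrophages line dying fat cells and take up their lipid. Of 12 genes of this state none rose and 6 fell (median −1.15), and their sum was 2275, 2352, 1436 and 1498 CPM in WT and 1053, 987, 1028 and 1233 CPM in HL1002P. Every HL1002P library was below every WT library. As a share of the summed fat cell list, this sum was 3.45% to 4.88% in WT and 3.36% to 5.39% in HL1002P, so the groups overlapped on that scale. Trem2, the lipid-sensing receptor of this state, was at 53.4, 51.9, 24.0 and 15.5 CPM in WT and 10.2, 3.79, 14.1 and 12.8 CPM in HL1002P and fell, with a log2 fold change of −1.83 ± 0.51 (SE, adjusted p = 0.0334). Gpnmb, a glycoprotein of lipid-laden macrophages, was at 194, 87.8, 109 and 67.3 CPM in WT and 27.4, 30.6, 56.7 and 36.1 CPM in HL1002P (log2 fold change −1.60, SE 0.36, adjusted p = 0.0222). Mmp12, the macrophage elastase, was at 143, 44.0, 75.0 and 44.7 CPM in WT and 2.43, 5.04, 15.8 and 13.1 CPM in HL1002P (log2 fold change −3.08, SE 0.65, adjusted p = 0.0203). These 3 genes did not overlap between groups. Spp1, the secreted protein osteopontin, was at 8.32, 3.19, 7.17 and 12.2 CPM in WT and 4.80, 4.03, 25.3 and 9.71 CPM in HL1002P and its log2 fold change of 0.50 ± 0.63 (SE, adjusted p = 0.552) did not pass. Without WT replicate 1, 2 of the 12 genes passed.

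Granulocyte and interferon lists moved in part. Of 11 neutrophil genes 4 rose (median 2.24). Their summed level overlapped between groups, at 31.0, 71.0, 514 and 263 CPM in WT and 462, 204, 285 and 381 CPM in HL1002P. Among the genes that rose was the chemokine receptor gene Cxcr2, at 0.386, 1.66, 1.62 and 3.15 CPM in WT and 16.3, 13.7, 16.5 and 3.97 CPM in HL1002P (log2 fold change 2.89, SE 0.66, adjusted p = 0.0229). Of 9 mast cell genes 7 rose (median 1.18), with sums of 129 to 413 CPM in WT and 308 to 547 CPM in HL1002P that also overlapped. Cpa3, the mast cell carboxypeptidase, lay at 14.7 to 42.4 CPM in WT and 49.2 to 91.9 CPM in HL1002P and rose by 1.18 ± 0.33 (SE, adjusted p = 0.035). Of 28 interferon-stimulated genes 10 rose and none fell (median 0.53), and their sums overlapped between groups. Irf7, the transcription factor that amplifies the interferon response, was at 41.3, 25.6, 31.4 and 37.1 CPM in WT and 91.8, 104, 82.2 and 37.9 CPM in HL1002P and rose by 1.22 ± 0.30 (SE, adjusted p = 0.0256). Mx1, an antiviral GTPase, rose by 1.44 ± 0.32 (SE, adjusted p = 0.022). Isg15, a ubiquitin-like protein, had a log2 fold change of 0.39 ± 0.22 (SE, adjusted p = 0.197). HL1002P replicate 4 was within or close to the WT range for all 3, and no interferon gene passed without WT replicate 1.

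Of 34 DNA replication genes 24 rose (median 1.07), and of 21 mitosis genes 12 rose (median 1.44); none of either list fell. The other 10 replication and 9 mitosis genes did not pass, and both sums overlapped between groups, with HL1002P replicate 4 in the WT range. Mcm2, a subunit of the replicative helicase, was at 11.6, 23.3, 16.6 and 18.7 CPM in WT and 60.3, 64.7, 56.1 and 24.4 CPM in HL1002P and rose by 1.55 ± 0.33 (SE, adjusted p = 0.0201). Cdt1, which loads that helicase on DNA, was at 5.30, 7.09, 8.52 and 6.87 CPM in WT and 26.6, 31.7, 38.4 and 15.4 CPM in HL1002P and rose by 2.01 ± 0.29 (SE, adjusted p = 0.0172). Mki67, the proliferation antigen Ki-67, was at 34.0, 58.5, 38.0 and 29.6 CPM in WT and 229.8, 222, 144 and 40.6 CPM in HL1002P and rose by 1.99 ± 0.49 (SE, adjusted p = 0.0262). HL1002P replicates 1 to 3 were above every WT library, and replicate 4 lay inside the WT range. Cdk1, the mitotic kinase, showed the same split of HL1002P libraries and did not pass (log2 fold change 0.99, SE 0.44, adjusted p = 0.117). Rrm2, a ribonucleotide reductase subunit, lay at 5.60 to 12.8 CPM in WT and 12.2 to 40.4 CPM in HL1002P and rose by 1.96 ± 0.41 (SE, adjusted p = 0.0201). Without WT replicate 1, 4 replication genes and no mitosis gene passed. Without HL1002P replicate 4, 28 of 34 and 19 of 21 passed. Summed DNA replication genes were at 451, 630.4, 506 and 500.1 CPM in WT and 1382, 1387, 1095 and 609 CPM in HL1002P. HL1002P replicates 1 to 3 were the highest libraries in this sum, as in the B and T cell sums. The part of dividing lymphocytes was not tested.

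The promoters of these lists were searched on both strands for the letters that E2F and the cell cycle homology region (CHR) are known by, in RefSeq windows of GRCm38.p6 reaching from 250 bases before to 50 after the start. An E2F match was any of TTTCCCGC, TTTGGCGC and TTTCGCGC, and the CHR match was TTTGAA. Matches of different E2F spellings can overlap. Of 34 replication genes tested 28 had a window, and 12 of these (42.9%) held an E2F match, against 3.7% of the 12405 genes tested with a window and 2.1% of all 27025 genes with one. Of 17 mitosis genes with a window, out of 21, 15 (88.2%) held the CHR letters, against 14.8% of the genes tested and 20.2% of all, and 14 (82.4%) held CCAAT, against 42.0% and 41.1%. An E2F match was in 1 of the 17. Of the spindle checkpoint genes, 11 of 21 (52.4%) held the CHR letters and none an E2F match. A match is a description of these letters only.

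Stretches of 120 bases upstream of the start are printed for 5 genes, chosen after their values were seen, to show the letters. These genes rose with the smallest p among members that held a match upstream of the start, in a stretch wholly outside the annotated gene. A stretch was moved further upstream where needed to hold the match nearest the start, so a stretch need not end at the start. Each runs 5′ to 3′ on the gene's strand, and capitals mark E2F matches in the 3 replication genes and CHR or CCAAT letters, on either strand, in the 2 mitosis genes. The stretches are chr8:75109340-75109459 (plus strand), chr5:151651209-151651328 (minus strand), chr1:128359706-128359825 (minus strand), chr19:37376262-37376381 (plus strand) and chr9:70421622-70421741 (minus strand).
Mcm5: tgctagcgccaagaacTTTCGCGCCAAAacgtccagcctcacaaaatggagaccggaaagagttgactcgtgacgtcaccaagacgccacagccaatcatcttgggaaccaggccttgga
Rfc3: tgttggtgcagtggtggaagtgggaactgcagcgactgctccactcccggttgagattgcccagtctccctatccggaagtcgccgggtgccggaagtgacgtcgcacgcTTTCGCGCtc
Mcm6: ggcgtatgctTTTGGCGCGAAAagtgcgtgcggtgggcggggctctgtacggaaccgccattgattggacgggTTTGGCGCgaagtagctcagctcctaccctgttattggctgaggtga
Kif11: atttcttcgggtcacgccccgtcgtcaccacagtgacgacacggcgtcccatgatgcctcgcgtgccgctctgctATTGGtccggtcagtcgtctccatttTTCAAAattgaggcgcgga
Ccnb2: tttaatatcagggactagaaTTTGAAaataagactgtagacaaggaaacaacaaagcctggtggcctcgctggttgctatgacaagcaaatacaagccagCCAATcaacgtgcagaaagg

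All 5 genes behind these stretches rose. Mcm5, a helicase subunit whose stretch holds 2 overlapping E2F matches, was at 14.8, 32.3, 20.7 and 19.9 CPM in WT and 100.2, 98.4, 74.9 and 29.5 CPM in HL1002P and rose by 1.79 ± 0.39 (SE, adjusted p = 0.0218). Mcm6, another helicase subunit with 3 matches, lay at 23.0 to 43.8 CPM in WT and 34.3 to 86.5 CPM in HL1002P and rose by 1.07 ± 0.31 (SE, adjusted p = 0.0382). Rfc3, a subunit of the clamp loader with 1 match next to the start, lay at 9.80 to 13.2 CPM in WT and 14.6 to 22.9 CPM in HL1002P and rose by 0.75 ± 0.20 (SE, adjusted p = 0.0306). Kif11, the motor that pushes spindle poles apart, was at 6.50, 12.2, 5.73 and 5.76 CPM in WT and 30.0, 33.1, 22.9 and 8.34 CPM in HL1002P and rose by 1.65 ± 0.44 (SE, adjusted p = 0.0306). Ccnb2, a mitotic cyclin, lay at 3.44 to 7.74 CPM in WT and 5.30 to 18.8 CPM in HL1002P and rose by 1.50 ± 0.43 (SE, adjusted p = 0.0363).

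Fat cell genes were lower as a group. Of 22 fat cell identity genes and adipokines none rose and 8 fell (median −0.83). Lep, the gene of the satiety hormone leptin, was at 5713, 6595, 1487 and 1459 CPM in WT and 264, 386, 167 and 1164 CPM in HL1002P. All HL1002P libraries were below all WT libraries, though replicate 4 came near to WT replicates 3 and 4, and Lep fell with a log2 fold change of −2.94 ± 0.78 (SE, adjusted p = 0.0302). Within the libraries with Y-linked counts it was −4.55. Pparg, the transcription factor that makes fat cells, was at 286, 273, 123 and 199.6 CPM in WT and 92.6, 100.1, 83.8 and 149 CPM in HL1002P and fell (log2 fold change −1.05, SE 0.29, adjusted p = 0.0333). Cd36, a fatty acid transporter, was at 4866, 4977, 2159.9 and 2522 CPM in WT and 964, 1007, 906 and 1709 CPM in HL1002P and fell (log2 fold change −1.66, SE 0.37, adjusted p = 0.0218). Adipoq, the adiponectin gene, had a log2 fold change of −1.08 ± 0.38 (SE, adjusted p = 0.0604) and did not pass. Aqp7, the glycerol channel of fat cells, lay at 120.0 to 258 CPM in WT and 65.3 to 100.0 CPM in HL1002P and fell (log2 fold change −1.16, SE 0.26, adjusted p = 0.0227). Without WT replicate 1, 1 of the 22 genes passed, and without HL1002P replicate 4, 16 did.

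**Figure D4:**
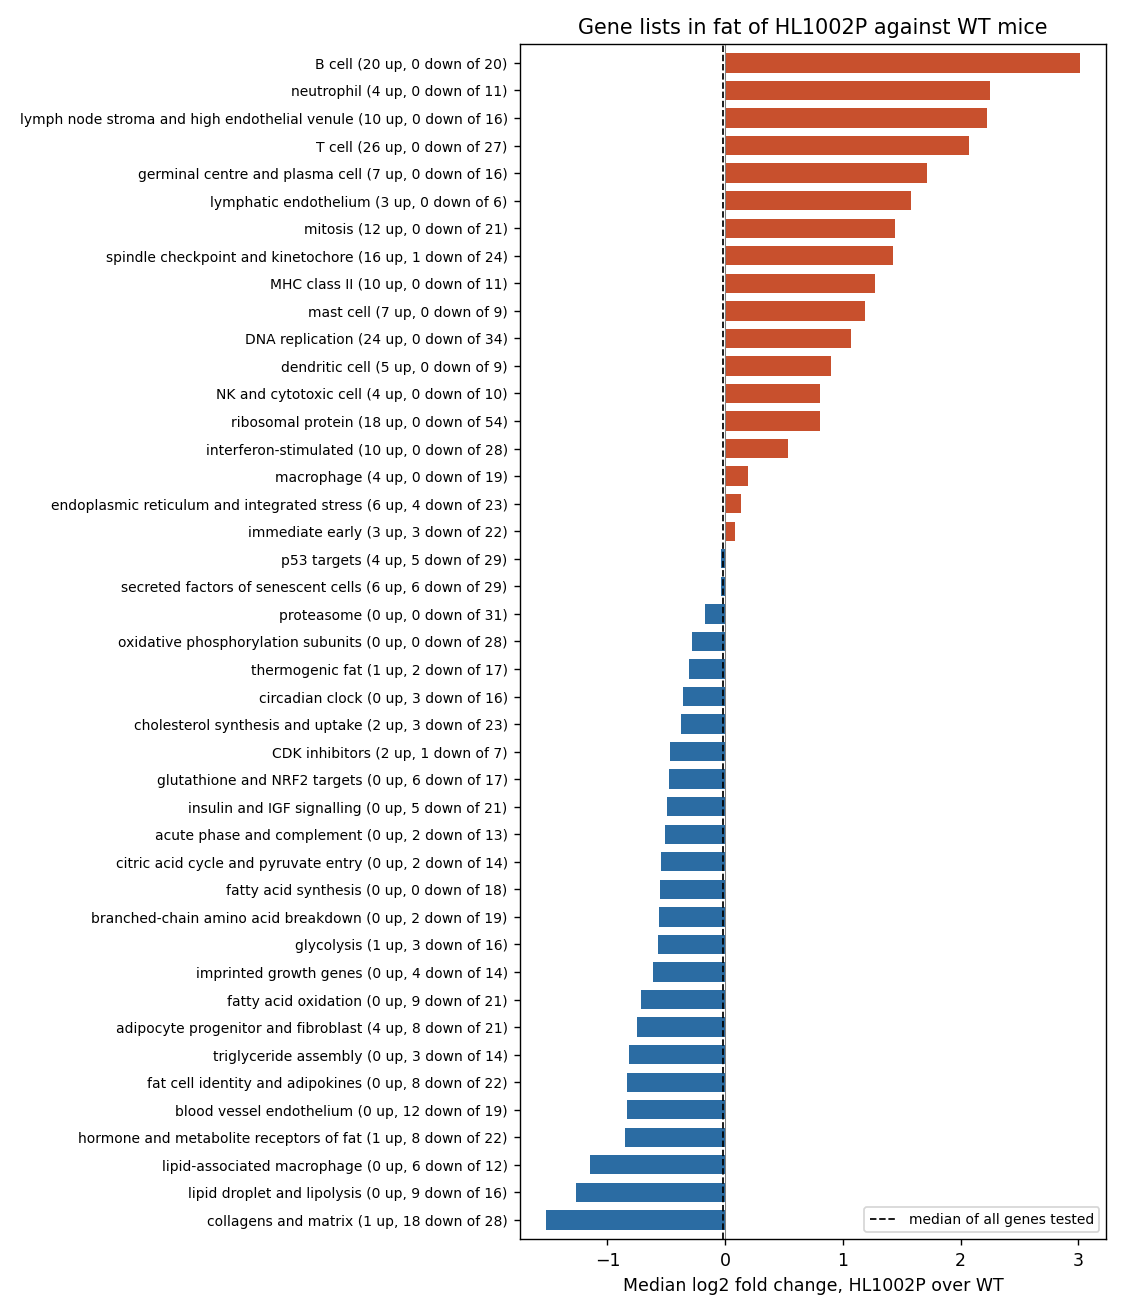
Median log2 fold change (HL1002P over WT) of the genes tested in each list drawn, with the numbers that rose (up) and fell (down) in brackets. The dashed line is the median of all 15910 genes, −0.02. Lists of skeletal muscle, mammary and skin epithelium, mesothelium, Schwann cell, red cell and sex-linked genes are not drawn. Medians run from 3.01 for B cell genes to −1.52 for collagens and matrix.

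The genes of the lipid droplet and of fat breakdown were lower too: 9 of 16 fell and none rose (median −1.27). Plin1, the coat protein that guards the droplet, was at 2052, 1975, 1065 and 1356 CPM in WT and 454, 699, 454 and 1009 CPM in HL1002P and fell (log2 fold change −1.30, SE 0.34, adjusted p = 0.029). Lipe, the hormone-sensitive lipase, was at 1962, 1658, 1045 and 1181 CPM in WT and 614, 695, 553 and 1052 CPM in HL1002P and fell (a fold of 0.498, adjusted p = 0.0364). Pnpla2, which starts lipolysis, did not pass (log2 fold change −0.61, SE 0.25, adjusted p = 0.0963). In each of these genes HL1002P replicate 4 was the highest HL1002P library. Triglyceride assembly had 3 of 14 lower (median −0.81), where 11.8% of all genes fell. Dgat2, which makes the last step to triglyceride, was at 4263, 4712, 929 and 1725 CPM in WT and 484, 454, 511 and 937 CPM in HL1002P and fell (log2 fold change −2.28, SE 0.54, adjusted p = 0.0239). Its HL1002P replicate 4 was above WT replicate 3. No droplet or triglyceride gene passed without WT replicate 1.

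Fatty acid synthesis showed no call in 18 genes (median −0.56). Fasn, the fatty acid synthase, ranged widely in each group at 2121, 2057, 406 and 4740.1 CPM in WT and 1122, 803, 2899 and 1431 CPM in HL1002P, with a log2 fold change of −0.58 ± 0.67 (SE, adjusted p = 0.523). Scd1, the desaturase, was at 5016, 2660.1, 6325 and 15005 CPM in WT and 4751, 4286, 5337 and 7590.0 CPM in HL1002P (log2 fold change −0.40, SE 0.51, adjusted p = 0.556), and the sign turned without WT replicate 4, which was the highest library. Acly, which supplies acetyl-CoA, had a log2 fold change of −0.14 ± 0.39 (SE, adjusted p = 0.804). Its sign also turned without that library. Of 23 cholesterol genes 2 rose and 3 fell (median −0.37), shares under or near the 16.0% and 11.8% of all genes. Hmgcs1, an early synthase of the pathway, lay at 181 to 759.9 CPM in WT and 87.5 to 183 CPM in HL1002P and fell (log2 fold change −1.96, SE 0.48, adjusted p = 0.0259).

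Of 21 fatty acid oxidation genes 9 fell and none rose (median −0.72). Cpt1a, which admits fatty acids to mitochondria, was at 185, 179, 151 and 105 CPM in WT and 105, 89.9, 96.1 and 91.6 CPM in HL1002P and fell (log2 fold change −0.70, SE 0.18, adjusted p = 0.028). None of the 9 passed without WT replicate 1. The citric acid cycle had 2 of 14 lower (median −0.55), branched-chain amino acid breakdown 2 of 19 (median −0.56) and glycolysis 3 of 16 with 1 higher (median −0.57). The falls in these 3 lists were near the 11.8% of all genes for the citric acid cycle and branched-chain breakdown and somewhat above it for glycolysis, and all 3 sums overlapped between groups. None of 28 oxidative phosphorylation subunits passed (median −0.28). Of 17 thermogenic genes 1 rose and 2 fell (median −0.31), the same share of falls as in all genes. Ucp1, the uncoupling protein of brown fat, was at 8.52, 11.2, 47.3 and 8.59 CPM in WT and 0.658, 0.307, 5.01 and 48.7 CPM in HL1002P (log2 fold change −0.47, SE 1.36, adjusted p = 0.802), high in WT replicate 3 and HL1002P replicate 4, the libraries richest in muscle RNA. Otop1, a proton channel of brown fat, fell (log2 fold change −2.03, SE 0.42, adjusted p = 0.0198). Tmem26, a surface marker used for beige fat, lay at 0.837 to 2.35 CPM in WT and 3.50 to 11.3 CPM in HL1002P and rose by 2.31 ± 0.46 (SE, adjusted p = 0.0193).

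Hormone signalling genes of fat cells followed. Of 21 insulin and insulin-like growth factor genes 5 fell and none rose (median −0.49), where 11.8% of all genes fell. Irs2, an insulin receptor substrate, was at 54.9, 52.7, 59.6 and 42.6 CPM in WT and 17.5, 33.5, 26.4 and 37.6 CPM in HL1002P and fell (log2 fold change −0.87, SE 0.23, adjusted p = 0.0307). Insr, the insulin receptor, fell by less (log2 fold change −0.45, SE 0.13, adjusted p = 0.04) from 106 to 145 CPM in WT and 80.0 to 104 CPM in HL1002P. Of 22 hormone and metabolite receptor genes 8 fell and 1 rose (median −0.85). Npr3, the clearance receptor for natriuretic peptides, was at 1896, 1673, 731 and 804 CPM in WT and 121, 253, 105 and 656 CPM in HL1002P and fell (log2 fold change −2.17, SE 0.64, adjusted p = 0.039). Ptger3, a receptor for prostaglandin E, was at 92.7, 95.8, 23.5 and 42.5 CPM in WT and 5.06, 6.41, 8.54 and 23.3 CPM in HL1002P and fell (log2 fold change −2.56, SE 0.62, adjusted p = 0.0249). Adrb3, the beta-adrenergic receptor of fat cells, was at 55.8, 26.6, 191 and 376 CPM in WT and 202, 169.8, 296 and 203 CPM in HL1002P and did not pass (log2 fold change 0.42, SE 0.70, adjusted p = 0.654); among libraries with Y-linked counts its value was 2.38.

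Imprinted growth genes had 4 of 14 lower and none higher (median −0.62). Mest, a paternally expressed gene tied to fat cell enlargement, was at 638, 742, 314 and 108 CPM in WT and 15.8, 24.0, 5.01 and 98.6 CPM in HL1002P. Its HL1002P libraries were all below its WT libraries, with HL1002P replicate 4 close to WT replicate 4. The log2 fold change was −3.65 ± 0.97 (SE, adjusted p = 0.0303), and −5.59 within the libraries with Y-linked counts. Peg10, a retrotransposon-derived imprinted gene, was at 11.1, 8.99, 15.7 and 10.3 CPM in WT and 0.858, 1.97, 1.89 and 6.50 CPM in HL1002P and fell (log2 fold change −2.04, SE 0.57, adjusted p = 0.0345). Plagl1, an imprinted zinc finger gene, fell (log2 fold change −1.32, SE 0.41, adjusted p = 0.0433). Peg3, an imprinted zinc finger gene too, did not pass (log2 fold change −1.73, SE 0.65, adjusted p = 0.0735). No imprinted gene on the list passed without WT replicate 1.

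Matrix genes gave the lowest list median. Of 28 collagen and matrix genes 18 fell and 1 rose (median −1.52). Their sum was 32930.5, 34062, 11739 and 18613 CPM in WT and 4541, 6369.8, 6002 and 10454 CPM in HL1002P, with no overlap between groups. As a share of the summed fat cell list, it was 39.9% to 50.5% in WT and 17.4% to 31.5% in HL1002P, also without overlap. Col4a1, a basement membrane collagen, was at 3466, 3574, 1251 and 1726 CPM in WT and 384, 589.7, 559.7 and 967 CPM in HL1002P and fell (a fold of 0.250, adjusted p = 0.0208). Col1a1, the main fibrillar collagen, was at 1468, 1283, 519 and 1052 CPM in WT and 171, 301, 311 and 491 CPM in HL1002P and fell (log2 fold change −1.76, SE 0.40, adjusted p = 0.0229). Lox, which crosslinks collagen, was at 261, 237, 122 and 94.1 CPM in WT and 39.4, 56.0, 27.7 and 70.0 CPM in HL1002P and fell (log2 fold change −1.89, SE 0.40, adjusted p = 0.0207). For each of these the WT libraries with Y-linked counts were the highest 2. Fn1, the fibronectin gene, did not pass (log2 fold change −0.75, SE 0.25, adjusted p = 0.0557). No matrix gene passed without WT replicate 1, and 24 fell without HL1002P replicate 4.

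Progenitor and vessel genes were mixed or lower. Of 21 progenitor and fibroblast genes 8 fell and 4 rose (median −0.75). Pdgfra, the receptor that marks these cells, was at 86.7, 73.9, 97.1 and 144 CPM in WT and 70.1, 67.6, 96.0 and 83.3 CPM in HL1002P and did not pass (log2 fold change −0.34, SE 0.22, adjusted p = 0.246). Pi16, a marker of early fibroblast progenitors, lay at 74.0 to 175 CPM in WT and 45.7 to 68.7 CPM in HL1002P and fell (log2 fold change −0.98, SE 0.26, adjusted p = 0.0293). Dpp4, another such marker that T cells share, rose by 1.25 ± 0.34 (SE, adjusted p = 0.0319). Thy1, shared by fibroblasts and T cells, lay at 73.7 to 144 CPM in WT and 182 to 244 CPM in HL1002P and rose by 0.98 ± 0.21 (SE, adjusted p = 0.0201). Of 19 blood vessel endothelial genes 12 fell and none rose (median −0.84). As a share of the summed fat cell list, their sum was 3.92% to 7.85% in WT and at least 5.13% in HL1002P. The groups overlapped on that scale, and HL1002P replicate 3 was the highest library. Cdh5, the junction protein of vessels, was at 419, 338, 210.3 and 233 CPM in WT and 101, 129, 154 and 157 CPM in HL1002P and fell (log2 fold change −1.15, SE 0.25, adjusted p = 0.0218). Tek, the angiopoietin receptor, fell (log2 fold change −0.96, SE 0.19, adjusted p = 0.0193). Pecam1, which leukocytes also express, did not pass (log2 fold change −0.03, SE 0.15, adjusted p = 0.884). Without WT replicate 1, 4 of the 19 passed.

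Lists tied to senescence and damage had calls in either direction. Of 29 secreted factors of senescent cells 6 rose and 6 fell (median −0.04), where 16.0% of all genes rose and 11.8% fell. The largest fall on the list was that of Mmp12, described above (log2 fold change −3.08). Tnf was at 1.78, 3.59, 4.16 and 3.34 CPM in WT and 9.15, 9.08, 9.35 and 7.31 CPM in HL1002P and rose by 1.44 ± 0.28 (SE, adjusted p = 0.0193). Ccl5, a T cell chemokine, lay at 35.1 to 66.4 CPM in WT and 107 to 159.6 CPM in HL1002P and rose by 1.39 ± 0.22 (SE, adjusted p = 0.0172). Il6 was at or under 0.757 CPM in all 8 libraries and did not pass (log2 fold change 0.71, SE 0.90, adjusted p = 0.559). Of 29 p53 targets 4 rose and 5 fell (median −0.03). Pmaip1, a death-promoting member, was at 2.12, 4.21, 4.76 and 5.18 CPM in WT and 19.8, 13.3, 23.6 and 8.67 CPM in HL1002P and rose by 2.01 ± 0.39 (SE, adjusted p = 0.0191). Mdm2, which degrades p53, lay at 44.4 to 52.2 CPM in WT and 51.0 to 64.0 CPM in HL1002P and did not pass (log2 fold change 0.22, SE 0.11, adjusted p = 0.15). The shares of p53 targets that rose and fell were near those of all genes, 16.0% and 11.8%.

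Among housekeeping and stress lists, 18 of 54 ribosomal protein genes rose and none fell (median 0.81). Rps3, a small subunit protein, was at 499, 915, 1024 and 905 CPM in WT and 2126, 2076, 1453 and 1175 CPM in HL1002P and rose by 1.03 ± 0.30 (SE, adjusted p = 0.036); WT replicate 1 was the lowest library. None of the 54 passed without it. No proteasome gene of 31 passed (median −0.17). Of 17 glutathione and NRF2 target genes 6 fell (median −0.48), with Srxn1, which repairs peroxiredoxins, at 52.0, 52.4, 34.8 and 43.1 CPM in WT and 22.3, 21.9, 27.2 and 28.7 CPM in HL1002P (log2 fold change −0.86, SE 0.17, adjusted p = 0.0191). Of 23 genes of endoplasmic reticulum and integrated stress 6 rose and 4 fell (median 0.13), where 16.0% of all genes rose and 11.8% fell. Fgf21, a stress hormone, lay at 1.07 to 6.11 CPM in WT and 0.198 to 0.734 CPM in HL1002P and fell (log2 fold change −2.79, SE 0.60, adjusted p = 0.0211). Pdia4, a protein-folding enzyme, rose by 0.85 ± 0.21 (SE, adjusted p = 0.0266). Of 16 clock genes 3 fell (median −0.36), where 11.8% of all genes fell, and the list sums overlapped between groups. The core factor gene Clock was lower by a log2 fold change of −0.66 ± 0.13. Of 22 immediate early genes 3 rose and 3 fell (median 0.08), shares near the 16.0% and 11.8% of all genes. Jun, a subunit of the AP-1 factor, was at 158, 135, 215 and 155 CPM in WT and 57.0, 59.7, 86.1 and 93.8 CPM in HL1002P and fell (log2 fold change −1.16, SE 0.21, adjusted p = 0.0181). Of 13 acute phase and complement genes 2 fell (median −0.51), a share near the 11.8% of all genes. Among them was Hp, the haemoglobin-binding protein haptoglobin, at 5723, 8422, 748 and 775 CPM in WT and 656, 729.7, 896 and 573 CPM in HL1002P (log2 fold change −2.46, SE 0.79, adjusted p = 0.0486). WT replicates 1 and 2 alone were high for Hp.

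The 12 largest rises, taken where the groups did not overlap and the mean level reached 1 CPM, included Madcam1, described above, and Gchfr, taken up below. Hamp, the iron hormone hepcidin, was at 0.0429, 0.491, 0.162 and 0.194 CPM in WT and 15.8, 8.05, 4.38 and 3.37 CPM in HL1002P (log2 fold change 5.17, SE 0.81, adjusted p = 0.0172); a near-identical copy, Hamp2, makes its count uncertain. All 4 HL1002P libraries were at least 3.37 CPM for Hamp. Il21, a cytokine of follicular helper T cells, was at 0.0215, 0.0614, 0.389 and 0.145 CPM in WT and 4.29, 3.39, 1.55 and 0.667 CPM in HL1002P (log2 fold change 3.92, SE 0.89, adjusted p = 0.0227). Fcrl5, a B cell receptor-like gene, was at 0.0858, 1.14, 0.810 and 0.968 CPM in WT and 16.0, 14.0, 11.5 and 4.54 CPM in HL1002P (log2 fold change 3.94, SE 0.73, adjusted p = 0.0182). Il22ra2, a soluble decoy for interleukin 22, was at 0.129, 2.46, 2.77 and 2.69 CPM in WT and 26.6, 35.1, 34.7 and 6.97 CPM in HL1002P (log2 fold change 3.69, SE 0.85, adjusted p = 0.0232). WT replicate 1 was the lowest library for each of these 4 genes. Syt1, a synaptic vesicle calcium sensor, rose by 3.87 ± 0.78, Nxph1, a secreted ligand of neurexins, by 4.20 ± 0.94, and Kcng1, a potassium channel subunit, by 4.22 ± 0.53. Bpifb3 rose by 5.11 ± 0.69, Mcpt2, a mast cell protease with close relatives, by 4.03 ± 0.98, and Trim30b, 1 of a cluster of similar genes, by 3.83 ± 0.55. In WT, Bpifb3 was at 0.0858 to 0.184 CPM. Bpifb3, Hamp and Il21 were so low in WT that they passed the count filter through the HL1002P libraries. The sizes of their rises are therefore uncertain.

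The 12 largest falls had another shape. Lipf, the gastric lipase gene, was at 36.0, 54.7, 1.39 and 0.775 CPM in WT and 0.172, 0.253, 0.0721 and 0.200 CPM in HL1002P (log2 fold change −7.05, SE 1.51, adjusted p = 0.0208). Its level in HL1002P was so low that the size of this fall is uncertain. Tph2, the neuronal enzyme of serotonin synthesis, was at 128, 216, 2.61 and 2.18 CPM in WT and 0.572, 0.578, 0.667 and 1.20 CPM in HL1002P (log2 fold change −6.87, SE 1.60, adjusted p = 0.0235). Itgad, an integrin of macrophages, was at 163, 184, 8.08 and 4.28 CPM in WT and 2.63, 1.12, 3.49 and 1.90 CPM in HL1002P (log2 fold change −5.29, SE 1.26, adjusted p = 0.0244). In all 3 the WT libraries with Y-linked counts stood far above the WT libraries with Xist, which were nearer to HL1002P. Mogat2, a monoacylglycerol acyltransferase, was at 32.9, 35.7, 2.83 and 9.32 CPM in WT and 0.372, 0.379, 1.10 and 2.10 CPM in HL1002P (log2 fold change −4.36, SE 0.94, adjusted p = 0.0211). Slc5a7, the choline transporter of nerve endings, was at 52.0, 86.1, 33.0 and 20.5 CPM in WT and 0.658, 1.61, 0.324 and 10.7 CPM in HL1002P (log2 fold change −3.87, SE 1.08, adjusted p = 0.0342). Tfr2, an iron-sensing receptor, fell with a value of −3.83 ± 0.98. The others, with log2 fold changes from −5.44 to −3.68, were Tmem132b, Tekt1, Hapln4, Sez6l, Unc79 and Hydin. For each of the 12 genes WT replicates 1 and 2 were the 2 highest libraries.

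**Figure D5:**
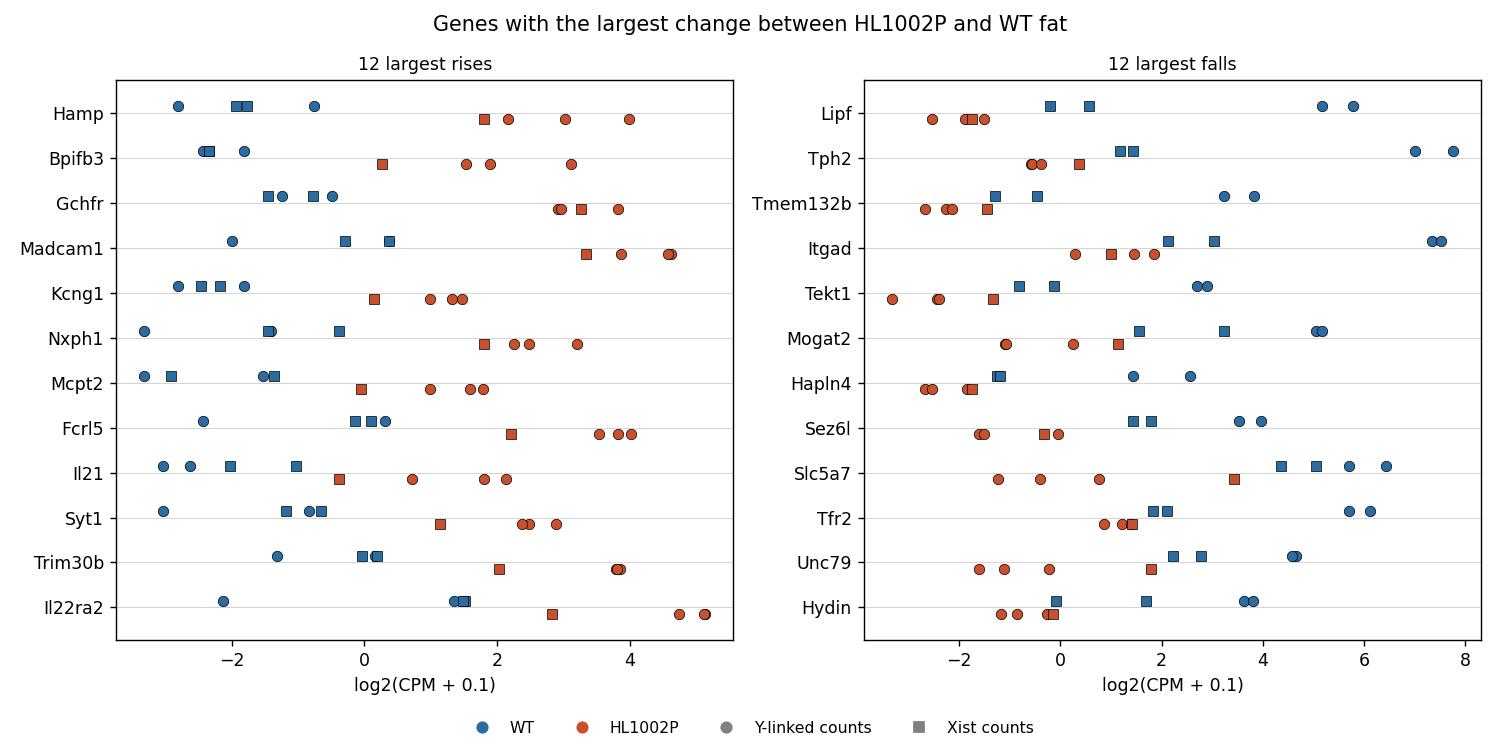
Levels of the 12 genes with the largest rise (left) and fall (right), as log2(CPM + 0.1), in WT (blue) and HL1002P (orange) fat libraries; circles have Y-linked counts and squares Xist counts. In the falls the 2 WT circles lie to the right of the WT squares. All genes shown were picked for no overlap between WT and HL1002P, so that separation was fixed by the choice.

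Gchfr, among the 12 largest rises, encodes the feedback regulator of GTP cyclohydrolase 1 and lies on chromosome 2 (119167788 to 119172389, GRCm38), 0.526 Mb beyond the end of Bub1b. Its level was 0.322, 0.614, 0.486 and 0.266 CPM in WT and 7.44, 7.67, 14.0 and 9.51 CPM in HL1002P. The log2 fold change was 4.51 ± 0.38 (SE, adjusted p = 0.0172), and its HL1002P replicate 4 was as high as the others. Other genes around Bub1b were then looked at, a choice made after these values were seen. Within 5 Mb on either side, 105 other genes were tested, of which 18 rose and 10 fell (26.7%, against 27.8% of all genes). Pla2g4f, a phospholipase gene 1.66 Mb away, was at 0.236, 0.614, 0.777 and 0.726 CPM in WT and 7.69, 5.40, 6.54 and 5.10 CPM in HL1002P and rose by 3.39 ± 0.40 (SE, adjusted p = 0.0172). Haus2, a subunit of the spindle-building augmin complex 1.97 Mb away, was at 21.6, 24.2, 17.9 and 20.3 CPM in WT and 11.8, 12.1, 10.2 and 10.3 CPM in HL1002P and fell (log2 fold change −0.92, SE 0.15, adjusted p = 0.0172). Jmjd7, 1.39 Mb away, was at 0.279, 0.276, 0.291 and 0.460 CPM in WT and 0, 0, 0 and 0 CPM in HL1002P, at least 4.44-fold lower against a floor of 3 counts per library. Its gene overlaps a read-through gene, so its count is uncertain. The alleles of Bub1b and the chromosome around them cannot be told apart here.

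Because lymphocyte genes separated the groups, a fit was also made with the mean log2 CPM of 47 B and T cell genes as a covariate. This mean was 1.75 to 4.42 in WT and 5.44 to 6.73 in HL1002P, so the groups did not overlap and the fit extrapolates. No gene passed (0.00% of 15910; smallest adjusted p 0.999), and 301 (1.89%) had an unadjusted p under 0.05, or 2364 without HL1002P replicate 4. The median SE of a log2 fold change went from 0.23 to 0.40, so this count of 0 does not show that the genes did not differ. The fitted median was −0.77 for collagens and matrix, −0.65 for lipid-associated macrophages, −0.55 for lipid droplet genes, −0.23 for fat cell identity, 0.39 for DNA replication and 0.51 for interferon-stimulated genes. These 6 medians kept their sign, and that of interferon-stimulated genes had been 0.53 without the covariate. Other medians turned sign in this fit: B cell genes, part of the covariate itself, were at −0.54, neutrophil genes at −0.69, ribosomal protein genes at −0.14, immediate early genes at −0.55, circadian clock genes at 0.22, thermogenic genes at 0.13 and mammary and skin epithelium at 0.23. Cdkn2a had 1.08 ± 0.50, Cdkn1a −0.80 ± 0.39 and Lep −1.61 ± 1.14. The smallest p of all 15910 genes was that of Gchfr, at 4.03 ± 0.64 (adjusted p = 0.999). Of the 105 genes near Bub1b 9 (8.6%) had an unadjusted p under 0.05, against 1.89% of all. Gchfr, whose values led to the choice of this region, is among the 9, so this share is no test of the region.

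HL1002P fat was set once against HH fat, which shares the H allele, in a fit of all 12 fat libraries. CPM of HH were scaled over these 12 libraries, and CPM of WT and HL1002P over their own 8, so the scales are not identical. No gene passed of 16266 (0.00%; smallest adjusted p 0.055), and 535 (3.29%) had an unadjusted p under 0.05, or 1656 without HL1002P replicate 4. DESeq2 called 22. The smallest p values in the higher direction were those of Pttg1, Slfn8 and Mst1. Pttg1, the securin that separase destroys at anaphase, was at 5.63, 8.99, 9.26 and 6.74 CPM in HH and 28.0, 26.3, 23.2 and 20.3 CPM in HL1002P, a log2 difference of 1.67 ± 0.22 (SE, adjusted p = 0.055). WT fat, at 19.7, 25.4, 22.3 and 35.5 CPM, overlapped HL1002P. Slfn8, an interferon-induced Schlafen gene with close relatives, was at 1.79, 4.13, 3.38 and 2.11 CPM in HH, and its 4 HL1002P libraries, which reached 42.0 CPM, were all above these, a difference of 3.42 ± 0.45 (SE, adjusted p = 0.055). WT fat, at 9.61, 7.83, 10.3 and 27.3 CPM, overlapped HL1002P here too. Mst1, a hepatocyte growth factor-like gene, differed by 4.52 ± 0.61 (SE, adjusted p = 0.055). None of these 3 genes overlapped between HL1002P and HH. In the lower direction the smallest p values were those of Myrip, Pkdcc and Adcyap1r1, each with an adjusted p of 0.839. Bub1b was at 5.96, 11.4, 14.3 and 9.25 CPM in HH fat and differed by 0.75 ± 0.38 (SE, adjusted p = 0.999), with overlap. Gchfr was at 17.6, 7.73, 18.9 and 17.9 CPM in HH fat.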

How the data were processed

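Polyadenylated RNA was sequenced with a kit that does not keep strand, per the labels' protocols. The authors deposited whole-number read counts per gene, and the submitters' processing notes name TopHat2 2.0.14, Bowtie2 2.2.6, featureCounts 1.4.6 and mm10. Among counts of 1 to 20, 64.9% to 67.5% per library were even, so both mates of a pair may have been counted. Of 24062 symbols, the 15910 kept by filterByExpr (at least 10 counts) were tested with edgeR 4.0.16 in R 4.3.3, with TMM scaling, a quasi-likelihood F test on group alone over the 8 libraries and Benjamini-Hochberg adjustment, after a check on simulated counts. The SE is the log2 fold change over the root of F. The covariate is a mean log2 CPM with a prior count of 2.

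Alternatives were DESeq2 1.42.0, limma 3.58.1 voom, other scalings and filters, thinning, a sex or replicate term, subsets of libraries and each library left out. Another 2, named in the closing section, were chosen after seeing the data.

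The compared group and the lists were chosen with earlier results of these data known. Named genes were Bub1b and Cdkn2a, the 12 largest rises and falls without overlap and with a mean of at least 1 CPM, passing over predicted genes and antigen receptor segments, and, per list, the first 3 genes plus up to 4 past the test with the smallest p. For HH the rule was the 3 smallest p in each direction. Of the listed genes, 1 each of fatty acid oxidation, glycolysis, thermogenic, lymph node and ribosomal genes did not pass the filter, and 1 neutrophil gene was not analysed here. Promoter windows (GRCm38.p6) and gene positions (GRCm38) are from RefSeq. Some genes of the rule are not reported here.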

Additional observations from a re-analysis of the deposited data

Results flagged for a closer look

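In 39 of 380 checks of a group of 4 libraries (10.3%), 1 library stood apart. Its gap to the nearest other, over the group's range, was above Dixon's critical value at 95%. The nominal rate of 5% holds for normal values and independent checks. These checks used CPM, not logs, of genes named here and of list sums that share genes. The 10.3% therefore measures no excess over chance. HL1002P replicate 4 was the library that stood apart in 23 of the 39 and WT replicate 1 in 5.

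HL1002P replicate 4 was above its group for the fat genes Cd36 (0.874), Pnpla2 (0.940), Dgat2 (0.881), Gpam (0.855), Acadm (0.840), Ucp1 (0.903) and Otop1 (0.875). It was also above it for Tph2 (0.850), Slc5a7 (0.877), Unc79 (0.831) and Glycam1 (0.902). Among summed lists it was above its group for triglyceride assembly (0.933), the citric acid cycle (0.899), glycolysis (0.942), insulin and IGF signalling (0.952), mammary and skin epithelium (0.915) and skeletal muscle (0.959). The same library was below its group for the immune genes Cd72 (0.931), Cd74 (0.937), Ciita (0.941), Tnf (0.868) and Trim30b (0.935) and for summed B cell genes (0.851). Glycam1 was at 602 CPM there, against 130.0 to 176 CPM in the other HL1002P libraries, although its B cell genes were lower.

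WT replicate 1 was below its group for Igj (0.871), Cd3e (0.881), Cd4 (0.912), Il22ra2 (0.881) and summed T cell genes (0.918). WT replicate 2 was above its group for Bpifb3 (0.885), Kif11 (0.881) and summed mitosis genes (0.917). WT replicate 3 was above its group for Ucp1 (0.931) and summed skeletal muscle genes (0.919). WT replicate 4 was above its group for summed fatty acid synthesis genes (0.831) and for Jmjd7 (0.917). HL1002P replicate 3 was above its group for Acly (0.874) and summed immediate early genes (0.956), replicate 1 was below it for Fn1 (0.885), and replicate 2 was below it for Ccl5 (0.907).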

How the results depend on the processing

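All 4420 calls share the limits of 4 libraries a group, with Xist and Y-linked counts split unequally between groups and lymphocyte, epithelial and muscle RNA differing between libraries. The count of changed genes ranged from 0 to 6656 over the fits that left out 1 library, with 0 to 3576 higher and 0 to 3080 lower. Directions of the called genes printed here did not turn in any of those fits that gave a value, 4 of the 8 for Jmjd7 and all 8 for the others. With libraries with Y-linked transcripts only, 8757 genes changed, 4335 higher and 4422 lower. With the muscle-rich pair of libraries left out, an alternative chosen after seeing the data, 7260 changed and 3486 were lower. DESeq2 called 2998 genes lower. Halving the counts, also chosen after seeing the data, gave 4565 changed genes. With the replicate number as a block, 0 genes changed, 0 higher and 0 lower, at a smallest adjusted p of 0.0598 and with 6340 genes at an unadjusted p under 0.05. Deviations of same-numbered libraries correlated at 0.185, 0.259, −0.248 and 0.308 across genes, and not every library correlated best with its own number, so the numbers were not taken as a pairing. HL1002P against HH fat gave 1 gene with HL1002P and HH libraries only and 22 with DESeq2.

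The values that turned sign belonged to genes not called in the reported fit and to list medians near 0. Acly was 0.10 among libraries with Y-linked transcripts and −0.39 to 0.25 with 1 library left out. Scd1 was 0.04 with a sex covariate, 0.27 among libraries with Y-linked transcripts and −0.70 to 0.19 with 1 library left out. Leaving out 1 library gave −3.24 to 0.53 for Ucp1, −0.32 to 0.78 for Spp1 and −0.12 to 0.03 for Pecam1, and Il6 was −0.13 with limma voom. The median of secreted factors of senescent cells was 0.04 with at least 1 CPM in 4 libraries, 0.05 among libraries with Y-linked transcripts, 0.08 without the muscle-rich libraries and −0.65 to 0.16 with 1 library left out. That of p53 targets was 0.09 with a sex covariate, 0.09 among libraries with Y-linked transcripts and −0.14 to 0.05 with 1 library left out. That of immediate early genes was −0.09 with limma voom, −0.09 with the block and −0.51 to 0.50 with 1 library left out. That of endoplasmic reticulum and integrated stress was −0.02 among libraries with Y-linked transcripts. For all of these the cause was not tested.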
